A study of Mus musculus with 4 samples.

Results

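Endothelial cells line every blood vessel, and 10 genes that mark them were followed here in mouse dorsal root ganglia: Pecam1, Kdr, Flt1, Tek, Tie1, Cldn5, Emcn, Egfl7, Esam and Ly6c1. They were taken as all probe sets of the array whose annotated gene symbol is one of these names, which gave 16 of 45101 probe sets. Flt1 and Egfl7 had 4 probe sets each, and 7 other genes had 1 each. Ly6c1 was represented only by a probe set that the annotation gives to both Ly6c1 and its paralog Ly6c2, so these genes cannot be told apart.

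The ganglia hold the cell bodies of sensory neurons along the spinal nerves. Total RNA from freshly dissected ganglia was hybridised to 4 Affymetrix mouse arrays, 2 from ganglia of the sample-2 level and 2 from ganglia of the sample-1 level. The labels name neither the levels nor a strain, genotype, age, sex or treatment other than the dissection, and both levels share that description. Whether the 2 arrays of a level hold RNA of different animals, or of pools, is not stated either. A p-value here therefore reflects how far arrays of a level lay apart, which can be technical. That spread is moderated by the spread of other probe sets of similar intensity. The question is whether the expression of vessel genes differed between the ganglia of the 2 levels.

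Vessels of a ganglion form a dense capillary bed around the neuronal cell bodies. Their endothelium responds to VEGF through the receptors Kdr and Flt1, and to angiopoietins through Tek with its partner Tie1. The cells are held together by junction proteins such as Pecam1, Cldn5 and Esam. Ganglion capillaries are in general more permeable than those of the nerve trunk or the brain, whose tight junctions depend on Cldn5.

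No endothelial marker passed the test between the levels. In the limma fit to log2(intensity + 16) across the whole array, 0 of 15 tested marker probe sets reached an adjusted p of 0.05, against 0.622% of all 27022 tested probe sets. By each gene's brightest tested probe set, 0 of 9 genes passed, against 0.857% of all tested genes. At an unadjusted p under 0.05 there was 1 marker probe set, that of Cldn5, against 10.9% of all. Of the 15 differences, sample-2 level minus sample-1 level, 7 lay above 0 and 8 below. They ranged from -0.41 to 0.29 with a median of -0.06, against a median of 0.00458 over all tested probe sets. With RNA from whole ganglia, the number of endothelial cells and the RNA per endothelial cell cannot be told apart.

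**Figure D1:**
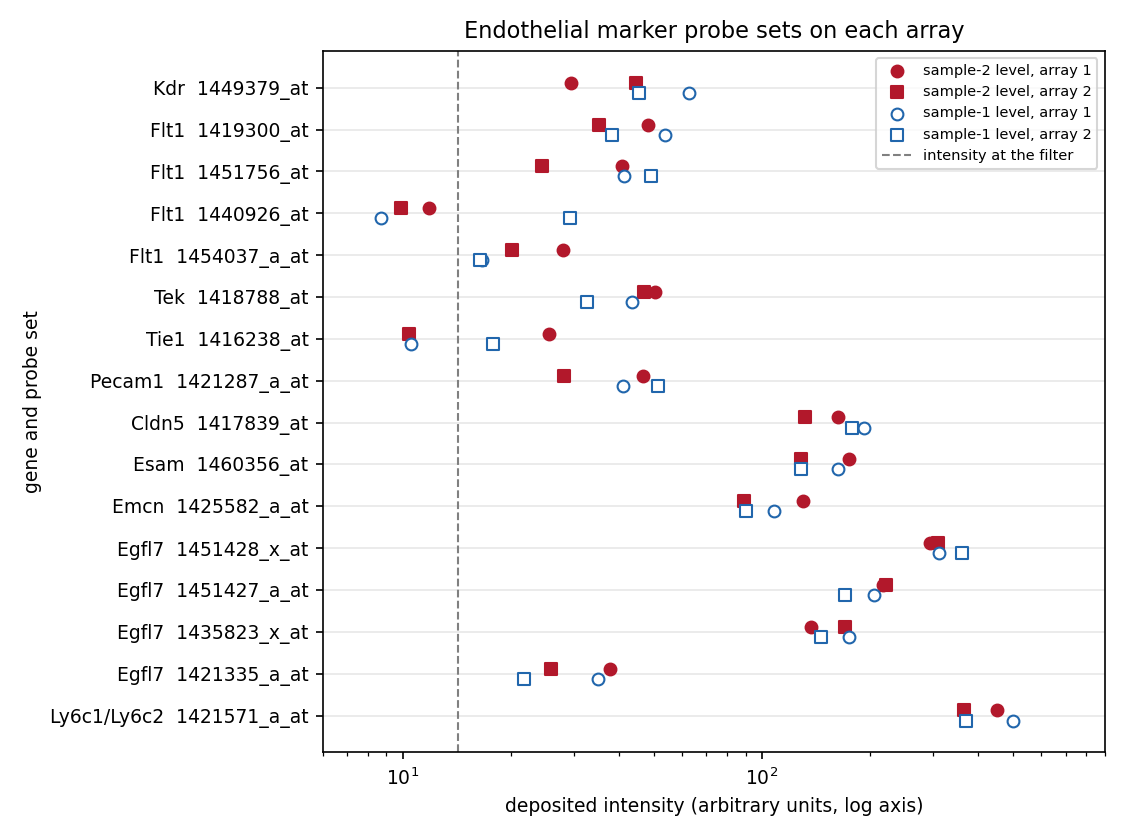
Deposited intensity (arbitrary units, log axis) of the 16 endothelial marker probe sets, with 1 point per array. Filled red symbols are the sample-2 level and open blue symbols the sample-1 level, circles are array 1 and squares array 2 of a level, and the dashed line is the intensity of 14.3 at the filter on low values. In 8 of the 15 tested rows the points of the levels overlap, and only Tie1 and the untested Flt1 probe set have points left of the line.

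Among the markers the largest difference in size was that of Kdr, which did not pass the test. Kdr, the main signalling receptor for VEGF-A, measured 29.3 and 44.6 at the sample-2 level, against 62.6 and 45.5 at the sample-1 level. Both sample-2 arrays lay below both sample-1 arrays, but the nearest pair differed by less than the arrays within either level. The fitted difference was -0.41 ± 0.22 (log2 ± SE, 95% interval -0.89 to 0.07, adjusted p = 0.543).

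Flt1, which binds VEGF-A tightly and signals weakly, was read by 4 probe sets that did not move together. The brightest, 1419300_at, measured 48.1 and 35.1 at the sample-2 level and 53.7 and 38.2 at the sample-1 level, so the levels overlapped (-0.10 ± 0.21, adjusted p = 0.915). Probe set 1451756_at measured 40.6 and 24.4 at the sample-2 level and 41.2 and 49.0 at the sample-1 level, with the sample-2 arrays lower (-0.35 ± 0.23, adjusted p = 0.624). Probe set 1454037_a_at measured 28.0 and 20.1 at the sample-2 level and 16.7 and 16.4 at the sample-1 level, with the sample-2 arrays higher (0.29 ± 0.25, adjusted p = 0.742). Thus the 3 tested probe sets of this gene pointed in different directions, and none of their intervals left out 0. The remaining probe set, 1440926_at, fell below the filter and was not tested. It measured 11.8 and 9.87 at the sample-2 level and 8.71 and 29.3 at the sample-1 level, where array 2 alone was above the intensity of 14.3 at the filter.

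Tek, the angiopoietin receptor, measured 50.3 and 46.9 at the sample-2 level and 43.5 and 32.5 at the sample-1 level. The sample-2 arrays were the higher pair, by 0.26 ± 0.20 (95% interval -0.17 to 0.70, adjusted p = 0.694). Tie1, an orphan receptor that pairs with Tek, was the dimmest tested marker, with 25.6 and 10.4 at the sample-2 level and 10.5 and 17.8 at the sample-1 level. Its levels overlapped, 1 array of each lay below the intensity at the filter, and its difference was the least precise of the markers (0.15 ± 0.30, adjusted p = 0.914).

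The ligands and partners of these receptors gave no call either. Of 13 such genes tested, 0 passed in either direction, 10 lay above 0 and 3 below, with a median of 0.07. Among all tested genes 48.8% lay above 0, and their median was -0.00576. Pgf, placental growth factor, a ligand of Flt1, measured 5.19 and 25.6 at the sample-2 level and 69.9 and 47.6 at the sample-1 level. Its arrays did not overlap, yet the difference of -1.32 ± 0.31 did not pass (adjusted p = 0.0890), and because 1 sample-2 array lay below the filter intensity its size depends on the pseudocount (-2.20 with a pseudocount of 1). Without sample-2 array 2 it was past the threshold (-1.80, adjusted p = 0.0159), in a fit where the single sample-2 array is assumed to vary as the sample-1 arrays do. Vegfd, a growth factor of the VEGF family that binds Flt4 in mice, measured 46.1 and 42.0 at the sample-2 level and 21.7 and 31.4 at the sample-1 level (0.51 ± 0.22, adjusted p = 0.421).

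**Figure D2:**
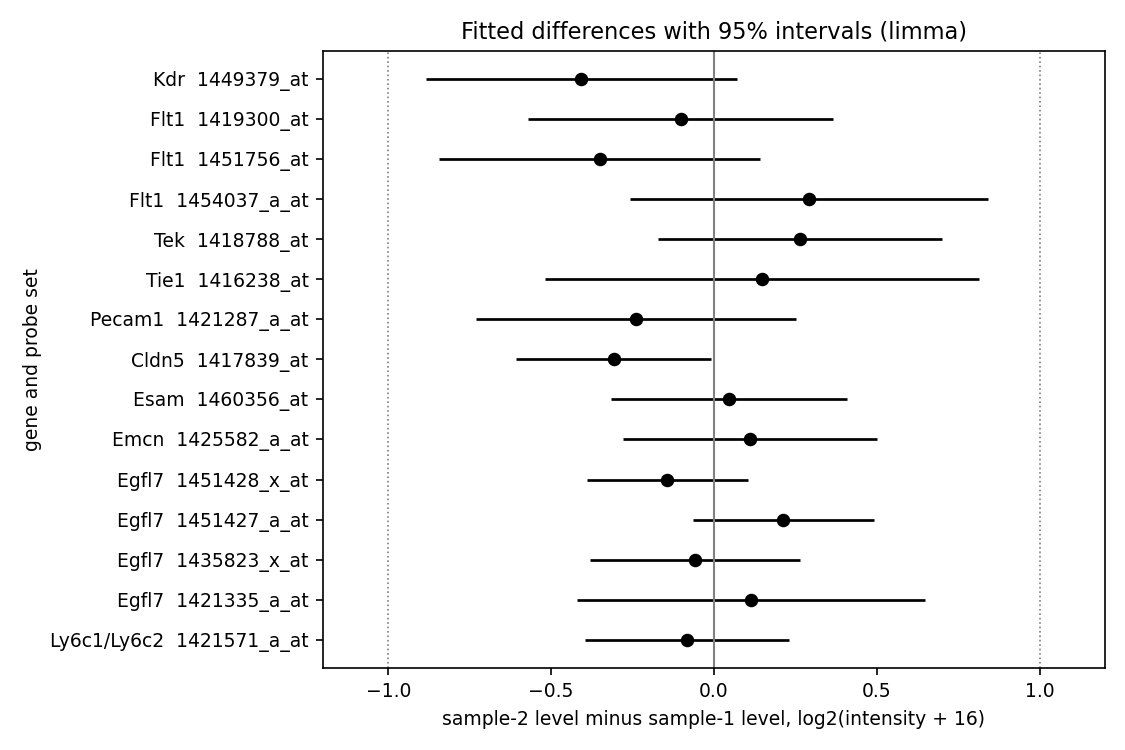
Fitted difference, sample-2 level minus sample-1 level, on the log2(intensity + 16) scale for the 15 tested endothelial marker probe sets (points), with 95% intervals from limma (lines). Dotted lines mark 1 log2 unit, a 2-fold difference on this scale. All 15 intervals lie between the dotted lines and 14 of them include 0.

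Among the junction and adhesion proteins, Cldn5 stood nearest to the threshold. This claudin seals the tight junctions of barrier vessels. It measured 163 and 132 at the sample-2 level, against 193 and 178 at the sample-1 level. Both sample-2 arrays were below both sample-1 arrays, and the difference was -0.31 ± 0.14 (95% interval -0.61 to -0.00787, unadjusted p = 0.0451, adjusted p = 0.447).

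Pecam1, an adhesion molecule at endothelial junctions that platelets and leukocytes also carry, measured 46.8 and 28.1 at the sample-2 level and 41.1 and 51.4 at the sample-1 level. The levels overlapped, with the lowest value on sample-2 array 2 (-0.24 ± 0.22, adjusted p = 0.769). Esam, an immunoglobulin-family adhesion molecule of endothelial tight junctions and platelets, measured 175 and 128 at the sample-2 level and 163 and 128 at the sample-1 level. Its levels were nearly superimposed (0.05 ± 0.17, 95% interval -0.31 to 0.41, adjusted p = 0.955).

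The list of other barrier and transport genes of nerve and brain vessels gave 0 of 12 tested genes past the threshold. Of these, 11 lay below 0, against 51.2% of all tested genes, and the median was -0.20. Slco1c1, a thyroid hormone transporter of brain capillaries, measured 13.6 and 13.3 at the sample-2 level and 45.3 and 18.8 at the sample-1 level (-0.65 ± 0.29, adjusted p = 0.455). Ocln, the tight-junction protein occludin, measured 12.3 and 16.2 at the sample-2 level and 22.2 and 27.2 at the sample-1 level (-0.43 ± 0.25, adjusted p = 0.589). Both genes were thus near the filter intensity at the sample-2 level, and their arrays did not overlap between levels.

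The surface and secreted markers overlapped in most probe sets. Emcn, a sialomucin of capillary and venous endothelium, measured 130 and 88.9 at the sample-2 level and 108 and 90.4 at the sample-1 level, a difference of 0.11 ± 0.18 (adjusted p = 0.880). The probe set of Ly6c1 and Ly6c2, neighbours in the GRCm38.p6 annotation with 0 protein-coding genes between them, measured 450 and 365 at the sample-2 level and 500 and 370 at the sample-1 level. The difference of -0.08 ± 0.14 did not pass (adjusted p = 0.893). Ly6c1 is a membrane-anchored protein of endothelium, whereas Ly6c2 is carried by inflammatory monocytes.

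Egfl7, a secreted protein of endothelium with EGF-like domains, was read by 4 probe sets, all tested. The brightest, 1451428_x_at, measured 293 and 310 at the sample-2 level and 311 and 360 at the sample-1 level (-0.14 ± 0.11, adjusted p = 0.715). Probe set 1451427_a_at measured 217 and 221 at the sample-2 level and 205 and 171 at the sample-1 level (0.21 ± 0.13, adjusted p = 0.592). The sample-2 arrays were therefore lower in the first and higher in the second, with no overlap in either. The other 2 probe sets overlapped between levels. Probe set 1435823_x_at measured 137 and 170 at the sample-2 level and 175 and 146 at the sample-1 level (-0.06 ± 0.15), and 1421335_a_at measured 37.6 and 25.9 at the sample-2 level and 34.9 and 21.7 at the sample-1 level (0.11 ± 0.24). A suffix _x_at marks probe sets whose probes can match other transcripts.

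The arrays of a level mostly differed from each other by more than the levels did. In 13 of 15 marker probe sets the larger gap between 2 arrays of 1 level exceeded the difference between levels, against 71.8% of all tested probe sets. Arrays of the levels did not overlap in 7 probe sets, 3 of them with the sample-2 level higher and 4 with it lower. Over all tested probe sets the arrays did not overlap in 41.2%, 21.1% with the sample-2 level higher and 20.1% with it lower. The share of 46.7% among the markers was thus near that of the array as a whole.

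Array 1 read higher than array 2 at both levels in 8 of 15 marker probe sets, against 25% of all tested probe sets. These were Tek, Cldn5, Esam, Emcn, the Ly6c1 and Ly6c2 probe set, 2 probe sets of Flt1 and 1 of Egfl7. The 15 probe sets are of fewer genes, and the pattern was not particular to endothelium. Among fibroblast and related markers, Mfap5, Col1a2 and Lum also read higher on array 1 at both levels, whereas Ptgds did not. Among endothelial genes outside the marker list, Ecscr and Cd93 did so, and Vwf and Eng did not. The median deviation of the markers from their own mean was 0.11 on sample-2 array 1 and -0.18 on sample-2 array 2, and 0.08 on sample-1 array 1 and -0.13 on sample-1 array 2. The labels do not say whether arrays with the same number share an animal or a day.

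**Figure D3:**
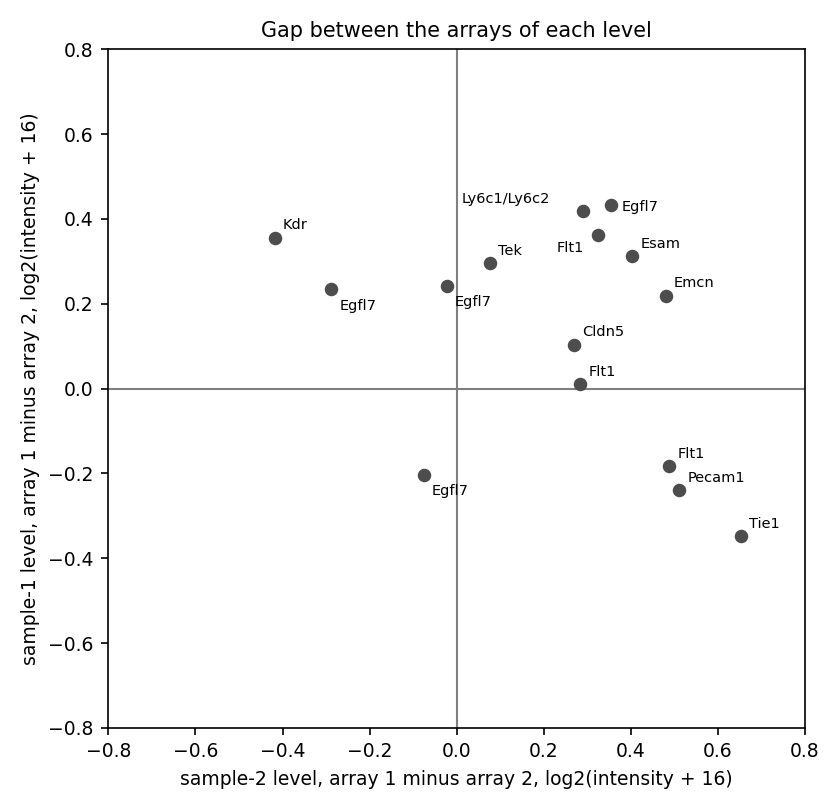
Gap between array 1 and array 2 on the log2(intensity + 16) scale at the sample-2 level (horizontal) and at the sample-1 level (vertical), with 1 point for each of the 15 tested endothelial marker probe sets. To the upper right lie the 8 probe sets that read higher on array 1 at both levels.

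The intervals show how large a difference the spread between arrays left possible. They need not cover the spread between animals, since it is not stated whether the arrays of a level hold RNA of different animals. All 15 lay within 1 log2 unit of 0, a 2-fold difference on the log2(intensity + 16) scale, as did 94% of all tested probe sets. With a pseudocount of 1, which shrinks dim probe sets less, 10 of 15 did. Only 7 of the 15 lay within a 1.5-fold difference, against 61.6% of all. The standard errors were 0.11 to 0.30, highest for Tie1 and lowest for the brightest Egfl7 probe set. For the other 8 a 1.5-fold difference lay inside the interval in at least 1 direction, and 2 arrays a level limit what could be resolved.

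Further endothelial genes beyond the 10 markers gave 0 of 29 tested genes past the threshold. Their median was -0.15, with 20 below 0 and 9 above, and 5 had an unadjusted p under 0.05, against 12.4% of all tested genes. Cdh5, the cadherin of endothelial junctions, measured 50.2 and 29.2 at the sample-2 level and 48.9 and 55.5 at the sample-1 level, so its levels overlapped (-0.32 ± 0.22, adjusted p = 0.661). Ecscr, an endothelial surface protein, measured 100.04 and 64.8 at the sample-2 level and 142 and 126 at the sample-1 level. Its arrays did not overlap, but the difference of -0.63 ± 0.18 did not pass (adjusted p = 0.176). It did pass without sample-2 array 1 (-0.89, adjusted p = 0.0485), again with 1 array on the sample-2 side. Ushbp1 had the most negative difference of the list, with 3.52 and 15.1 at the sample-2 level and 22.7 and 23.5 at the sample-1 level (-0.67 ± 0.30, adjusted p = 0.451). Its sample-2 array 1 lay below the filter intensity, so the size of that difference depends on the pseudocount.

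Genes of arteriovenous identity and Notch signalling, and markers of lymphatic endothelium, likewise had 0 of 14 and 0 of 4 tested genes past the threshold, with medians of 0.02 and -0.02. Dll4, the Notch ligand of arterial and tip cells, measured 3.69 and 18.6 at the sample-2 level and 21.9 and 28.6 at the sample-1 level (-0.65 ± 0.31, adjusted p = 0.479). Sema3g, a semaphorin of arterial endothelium, measured 98.0 and 84.3 at the sample-2 level and 170 and 134 at the sample-1 level (-0.64 ± 0.15, adjusted p = 0.103). Neither passed, although the arrays of both genes were lower at the sample-2 level without overlap. Sample-2 array 1 of Dll4 lay below the filter intensity, so the size of its difference depends on the pseudocount. The list as a whole had 8 genes above 0 and 6 below. Its highest difference was that of Bmx, a kinase of arterial endothelium named after its values were seen (0.55 ± 0.27, adjusted p = 0.498). Sample-1 array 2 of Bmx lay below the filter intensity. On the lymphatic list, Lyve1, a hyaluronan receptor that macrophages also carry, measured 59.1 and 70.6 at the sample-2 level and 65.5 and 37.7 at the sample-1 level. The differences farthest from 0 on that list belonged to Reln, a secreted glycoprotein (-0.76 ± 0.16, adjusted p = 0.0590), and Mmrn1, a multimerin (0.41 ± 0.28, adjusted p = 0.652). Both sample-1 arrays of Mmrn1 lay below the filter intensity. Reln was close to the threshold, and was past it with a filter at the 60th percentile (adjusted p = 0.0490) and without probe sets ending in _x_at or _s_at (0.0489). It was not past it with arrays centred on their medians (0.104), without the filter (0.407) or without the trend (0.486). Its difference ranged from -1.04 without sample-2 array 1 to -0.48 without sample-2 array 2.

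The cells that wrap vessels gave 1 call. Of 14 tested markers of pericytes and vascular smooth muscle, 1 was lower and 0 higher, with a median of -0.07. Vtn, which encodes vitronectin and marks brain pericytes, fell to 94.7 and 77.0 at the sample-2 level, against 166 and 151 at the sample-1 level (-0.78 ± 0.15, adjusted p = 0.0411). That call was lost without sample-1 array 1 (adjusted p = 0.155), sample-1 array 2 (0.0871) or sample-2 array 2 (0.183), and with arrays centred on their medians (0.0637), without the filter (0.328) or without the trend (0.415). Pdgfrb, the receptor through which endothelium recruits pericytes, measured 269 and 230 at the sample-2 level and 293 and 243 at the sample-1 level, with overlap (-0.10 ± 0.13, adjusted p = 0.847). Other genes of the list pointed upward, and 2 are named here after their values were seen. Rgs5, a G-protein regulator of pericytes, measured 2128 and 2183 at the sample-2 level and 1718 and 1655 at the sample-1 level (0.35 ± 0.07, adjusted p = 0.0558). Its arrays did not overlap, and it was past the threshold with quantile normalization (adjusted p = 0.0475), a filter at the 60th percentile (0.0423) and no _x_at or _s_at probe sets (0.0489). It was not past it with arrays centred on their medians (0.105), without the filter (0.340) or without the trend (0.501). Myh11, the myosin of smooth muscle, measured 40.8 and 36.5 at the sample-2 level and 16.1 and 18.9 at the sample-1 level (0.71 ± 0.23, adjusted p = 0.238).

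**Figure D4:**
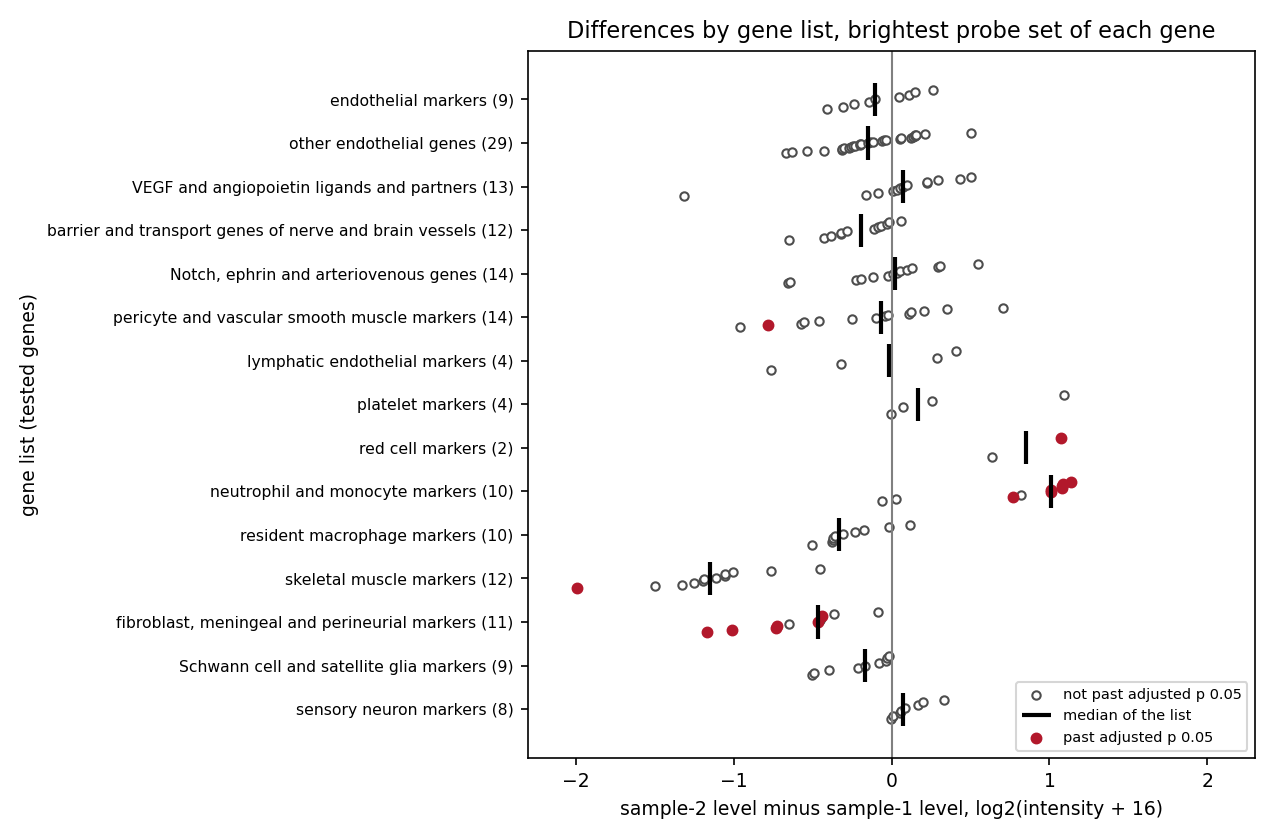
Difference, sample-2 level minus sample-1 level, on the log2(intensity + 16) scale for the brightest tested probe set of each gene, by gene list (number of tested genes in parentheses). Open points did not pass adjusted p 0.05, filled red points did, and black bars are list medians. The endothelial markers have no filled point. Among the filled points are 7 neutrophil and monocyte markers to the right and 6 fibroblast, meningeal and perineurial markers to the left. The lists were chosen with earlier results of these data known, so these counts are no independent contrast.

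Markers of other cell types in the dissected tissue did differ between the same arrays, and some of these cells carry members of the marker list. The lists were chosen with earlier results of these data known, so their counts are no independent contrast to the endothelial markers. Among all tested genes 0.857% passed. None of the neutrophil, red cell, fibroblast or muscle calls given here was kept without the filter on low values or without the intensity trend. Of 10 tested neutrophil and monocyte markers 9 lay above 0 and 7 passed, by the most for Lcn2 (1.14), Chil3 (1.08), S100a9 (1.08) and Camp (1.08). Their summed intensity was 6876 to 8627 at the sample-2 level, against 3439 to 4106 at the sample-1 level. Of 2 tested red cell markers 1, Slc4a1, was higher (1.07, adjusted p = 0.0363, but 0.0571 with arrays centred on their medians, 0.112 without sample-1 array 1 and 0.173 without sample-2 array 2), with sums of 319 to 441 at the sample-2 level and 182 to 199 at the sample-1 level. The only Hba-a1 probe set tied to that gene alone measured 3.46 and 5.23 at the sample-2 level and 1.64 and 2.68 at the sample-1 level, below the filter. Of 4 platelet markers 0 passed, and their sums were 434 to 561 at the sample-2 level and 384 to 393 at the sample-1 level. Pf4, a platelet chemokine, measured 152 and 198 at the sample-2 level and 131 and 155 at the sample-1 level, while Ppbp measured 84.7 and 156 at the sample-2 level and 52.6 and 39.6 at the sample-1 level (1.09 ± 0.23, adjusted p = 0.0662, and 0.00742 without sample-2 array 1). The part of blood cells in the values of Pecam1, Esam and the Ly6c1 and Ly6c2 probe set was not tested.

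All 11 tested fibroblast, meningeal and perineurial markers lay below 0, and 6 passed. With a pseudocount of 1 there were 5, and with arrays centred on their medians 4. The largest passing differences were those of Ptgds (-1.17), Mfap5 (-1.01), Col1a2 (-0.73) and Lum (-0.73). The list median was -0.47, and ranged from -0.62 without sample-2 array 1 to -0.42 without sample-2 array 2. Sums of these markers were 8599 to 9145 at the sample-2 level and 13563 to 15481 at the sample-1 level. Resident macrophage markers had 0 of 10 past the threshold, a median of -0.34, and sums of 918 to 947 at the sample-2 level and 1161 to 1234 at the sample-1 level. Skeletal muscle markers summed to 2235 and 1456 on the sample-2 arrays, against 1830 on sample-1 array 1 and 9787 on sample-1 array 2. All 12 lay below 0 and 1, Myh2, passed (-1.99). Myh2 measured 2.16 and 11.7 at the sample-2 level and 42.8 and 120 at the sample-1 level. Both of its sample-2 arrays lay below the filter intensity, so the size of that difference depends on the pseudocount. Acta1, skeletal actin, differed by -1.33 (adjusted p = 0.234). The median of the muscle markers was -1.15, and moved to -2.31 without sample-1 array 1 and to 0.00711 without sample-1 array 2. It was -1.36 without sample-2 array 1 and -0.86 without sample-2 array 2. Markers of Schwann cells and satellite glia had 0 of 9 past the threshold by the brightest probe set, and 1 gene, Mbp, with another probe set that passed. Of 8 sensory neuron markers 0 passed, and their sums were 29910 to 32377 at the sample-2 level and 29454 to 30436 at the sample-1 level. The brightest probe sets of the 9 endothelial genes summed to 961 and 824 at the sample-2 level and 986 and 942 at the sample-1 level, and no marker was at 0 on any array. What these other tissues contributed to the endothelial values was not tested.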

How the data were processed

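Total RNA of mouse dorsal root ganglia was measured on 4 arrays, grouped by the levels in the titles. The number that ends each title was taken as the array number, and what it stands for is not stated. The values are linear intensity per probe set as the authors deposited them, the software and scaling steps being not given in the sources used here. Medians of the arrays lay between 25.8 and 27.2, so the deposited scaling was kept. No detection calls were used. Intensities were taken as log2(intensity + 16), which understates differences of dim probe sets. The 64 control probe sets and those under the 40th percentile of the mean were left out, leaving 27022. The fit used limma 3.58.1 in R 4.3.3 (lmFit and eBayes with an intensity trend) and took the sample-2 level minus the sample-1 level without covariates. It had 2 residual degrees of freedom, to which eBayes added 9.71 prior ones from all tested probe sets. Standard errors, intervals and p-values thus rest more on the common trend than on the arrays of the gene itself. P-values were Benjamini-Hochberg adjusted over all. The fit was tested on simulated data. An exact permutation test of 2 against 2 arrays cannot go below p = 0.333 and was not used.

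Gene names came from the platform annotation (34945 probe sets with 1 symbol, 932 with several, 9160 with none). All 10 member IDs matched a RefSeq table of GRCm38.p6, and no coordinates are given because the files name no build. Members and 14 further gene lists were chosen with earlier results of these data known. All members were named, and from each other list up to 4 passing genes, or the 2 with the largest difference, plus 8 fixed genes. Genes of the non-vascular lists that did not pass are mostly given as counts.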

Additional observations from a re-analysis of the deposited data

How the results depend on the processing

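Endothelial marker genes past the threshold numbered 0 under every alternative run: pseudocounts of 1 and 64, a stricter filter (60th percentile) or none, arrays quantile-normalized or centred on their medians, no intensity trend, the array number as a block, no _x_at or _s_at probe sets, any probe set of a gene, and each array left out in turn. The lowest adjusted p of any marker was 0.287, for Cldn5 with the block. In the main fit 0.857% of all tested genes passed, so a count of 0 among 9 genes decides little. Over the whole array, 168 probe sets passed, against 4 without the filter, 104 with centring, 1 without the trend, 793 with the array number as a replicate block, and 102 to 241 with each array left out. With that block Pgf (adjusted p = 0.00532), Ecscr (0.0250), Sema3g (0.0134) and Reln (6.19e-05) were also past the threshold as lower. Rgs5 (0.00623) and Ppbp (0.00188) were past it as higher. No label ties same-numbered arrays to 1 animal or day, and their deviations from the level means correlated at 0.03 across tested probe sets. The cause of these shifts was not tested.

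Leaving out single arrays, the direction turned for 8 probe sets, none past the threshold. Their differences ranged from -0.28 to 0.0786 for Flt1 1419300_at, from -0.0274 to 0.47 for Tie1, from -0.49 to 0.0168 for Pecam1, from -0.16 to 0.25 for Esam, from -0.13 to 0.35 for Emcn, from -0.20 to 0.0857 for Egfl7 1435823_x_at, from -0.10 to 0.33 for Egfl7 1421335_a_at and from -0.29 to 0.13 for the Ly6c1 and Ly6c2 probe set. The direction of Kdr, Cldn5, Tek, Egfl7 1451428_x_at and 1451427_a_at, and of the other 2 tested Flt1 probe sets did not turn in any alternative that tested them. A fit without 1 array assumes that the lone array of its level varies like the other level, so a lack of calls in it decides nothing. With 2 arrays a level and no detection calls, dim probe sets such as Tie1 limit what can be seen.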
